A study of Mus musculus with 10 samples.

Results

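The Rab genes encode small GTPases of vesicle traffic, and they were taken from the table as the symbols made of Rab, a number and any letters or digits after it. This gave 50 of the 10431 genes, of which 41 are Rab GTPases and 9 are regulators or effectors whose symbols have the same form (*Rab11fip1* to *Rab11fip5*, *Rab3gap1*, *Rab3gap2*, *Rab3il1* and *Rab3ip*). A Rab protein cycles between a GTP-bound form, which sits on a membrane and recruits effectors such as tethers and motors, and a GDP-bound form that a GDP dissociation inhibitor holds in the cytosol. Exchange factors (GEFs) load GTP, activating proteins (GAPs) speed its hydrolysis, and each Rab marks its own compartment, so that the set of Rabs maps the endosomes, the Golgi apparatus and the secretory granules of a cell. In blood cells Rabs serve phagocytosis, the release of granules from platelets and leukocytes, and the uptake and recycling of receptors.

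Whole-blood RNA was sequenced in 5 AIWG-P mice, which were prone to weight gain on olanzapine, and in 5 AIWG-R mice, which were resistant. All 10 were single-housed C57BL/6J females bought at 9 weeks of age, and all were given olanzapine for 14 days, mixed into high-fat food (fat at 45% of kcal). The study's methods describe the sequenced blood as drawn at baseline. The treatment field of the sample labels names the olanzapine diet, and the design text of the series mentions blood from the start and from the end, so the labels alone do not fix the time of sampling. The cohorts were set by weight gain on the drug, and no group without olanzapine is among the samples.

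One normalized value per gene and mouse was given, and all 50 genes were above 1 in at least 5 mice. Every value was a whole multiple of a step size set for its mouse, and the sum of these multiples, a guide to depth if each step was a read, was 24447563 to 32293924 in AIWG-P mice and 23810098 to 28093845 in AIWG-R mice. Globin genes took 78.2 to 87.5% of the total in AIWG-P mice and 75.0 to 83.2% in AIWG-R mice. Without them, the sum of multiples was 3645099 (P8) to 6246075 in AIWG-P mice and 4448980 to 6739619 (R9) in AIWG-R mice. Markers of red cells, platelets, neutrophils, monocytes, B cells, T cells and NK cells were measured, and none with values was at 0 in any mouse. This says little, since only 2 of the 10431 genes given did not exceed 1 in 5 or more mice. Listed markers without values were *Ly6g*, *Camp* and *Ltf* (neutrophil), *Epb42* and *Epb41* (red cell) and *Fcmr* (B cell). Also without values were *Siglecf*, *Prg2* and *Epx* (eosinophil) and *Mcpt8*, *Fcer1a*, *Prss34* and *Ms4a2* (basophil and mast cell). That left 2 of 5 eosinophil markers and 2 of 6 basophil and mast cell markers with values. In a mixture such as whole blood, fewer cells of a type and less RNA per cell cannot be told apart. Mouse P8 stood apart over all genes, with a median absolute deviation of 0.29 on the log2 scale, against 0.11 to 0.15 in the other 9 mice. It held the highest value of 11 of the 41 Rab GTPases and the lowest of 7, and R9, with the lowest red cell marker sum, held the highest of 5 and the lowest of 8.

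The members come in close paralogs, so their coding sequences were compared first, to see whether reads of one gene could be taken for another. In 10 pairs of the same number, coding identity lay between 69.9 and 79.3%, and no stretch of 50 bases was shared by the transcripts of any pair. The most similar stretch of 60 bases shared by the 3 Rab5 genes is shown because *Rab5c* differed between the cohorts at an unadjusted *p* under 0.05 and its paralogs did not. Each is given 5′ to 3′ from GENCODE M21 transcripts, on chromosomes 11 (*Rab5c*), 17 (*Rab5a*) and 10 (*Rab5b*), and capitals mark bases that differ from *Rab5c*.
Rab5c: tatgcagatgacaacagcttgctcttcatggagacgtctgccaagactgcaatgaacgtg
Rab5a: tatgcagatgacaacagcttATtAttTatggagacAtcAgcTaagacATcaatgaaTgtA
Rab5b: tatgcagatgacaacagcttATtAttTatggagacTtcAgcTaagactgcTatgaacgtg
*Rab5a* differed from *Rab5c* at 11 of these 60 bases and *Rab5b* at 8. The same is shown for *Rab3a*, the Rab GTPase called lower in AIWG-P mice by the thresholds below, and for *Rab3d*. They lie on chromosomes 8 and 9, and capitals mark where *Rab3d* differs from *Rab3a*.
Rab3a: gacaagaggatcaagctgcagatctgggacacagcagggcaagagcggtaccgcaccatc
Rab3d: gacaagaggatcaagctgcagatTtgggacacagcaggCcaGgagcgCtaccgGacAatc
These stretches differed at 6 of 60 bases. They code for part of the GTPase fold, the conserved part of Rab proteins.

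No Rab GTPase transcript differed between AIWG-P and AIWG-R blood after adjustment over all genes, and neither did any other gene. With 5 mice per cohort, this does not show that the cohorts were alike. A gene was called when its unadjusted *p* in limma was under 0.05 and its log2 fold change was more than 0.32 from 0. The fold threshold is 25% higher, or as much lower on the log scale, and both thresholds follow the study's main text. A figure legend of the study gives a stricter fold cut for lower genes. Of the 41 Rab GTPases none was called higher and 1, *Rab3a*, was called lower. Of all 10429 genes tested, 4.06% were called higher and 3.23% lower. Among the 9 regulators and effectors 1 was called higher, *Rab3il1*, and none lower, so that 2 of the 50 members were called in either direction, against 7.29% of all genes. With no fold threshold, 3 of the 41 GTPases and 4 of all 50 members had an unadjusted *p* under 0.05, against 12.8% of all genes. In none of the 50 were the values of the cohorts free of overlap, against 2.55% of all genes. Adjusted over the whole table, limma gave no *p* under 0.05 for any member or for any other gene, and 1340 genes were under 0.05 unadjusted.

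The log2 fold changes of the 41 GTPases, AIWG-P over AIWG-R, ran between -0.49 and 0.50 with a median of 0.08, against a median of -0.01 over all genes tested. They were positive in 27 of the 41, against 48.4% of all genes. This direction turned with the scaling: when the total without globins set the scale, the median of all genes moved to -0.15 and that of the Rab GTPases to -0.07, with 8 of 41 positive and with 162 genes called higher and 1212 lower in place of 423 and 337. The distance between the Rab GTPases' median and that of all genes was 0.084 in the fit as described and 0.083 with that scaling. Because the scaling divides all values of a mouse by a single factor, it shifts all genes nearly alike, and this distance could hardly change. Single mice and the red cell markers moved this distance more. The median of the Rab GTPases was 0.03, 0.04, 0.04 and 0.05 without P1, P7, P8 and R4, 0.05 without both P8 and R9, and 0.04 with the mean log2 value of the red cell markers as a covariate. Its distance to the median of all genes then lay between 0.0346 (without P1) and 0.0613 (without R4), and was 0.0405 with the red cell covariate. The sample labels also carry a number of unstated meaning (4 in 7 mice, 3 in R1, P7 and P8), and with it as a covariate the median of the Rab GTPases was 0.05, with 335 genes called higher and 263 lower and the calls of *Rab3il1* and *Rab3a* kept. The median within-cohort SD of the Rab GTPases was 0.16 on the log2 scale, against 0.21 over all genes tested. Genes were not matched for level in this comparison. Among the GTPases, *Rab7* had the lowest SD (0.072) and *Rab27b* the highest (0.61). The plot of fold changes by compartment shows this spread, with most intervals crossing 0.

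**Figure D1:**
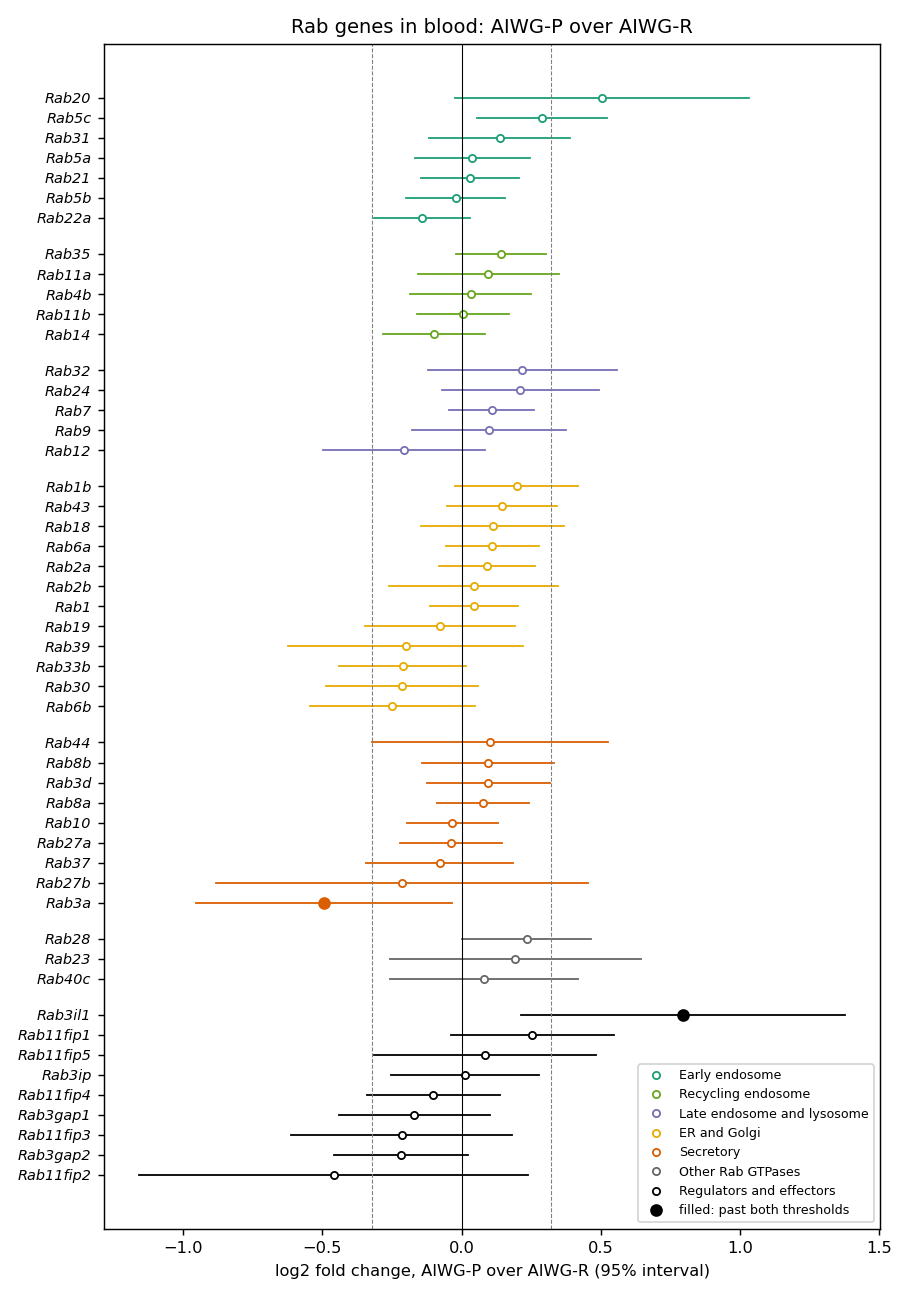
Log2 fold change, AIWG-P over AIWG-R, of all 50 members by compartment (points) with 95% intervals from limma (lines). Filled points mark the 2 members past both thresholds, *Rab3a* at -0.49 and *Rab3il1* at 0.79, and dashed lines mark the fold threshold at 0.32 either way.

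Per length, the levels of the 41 GTPases spanned 2 orders of magnitude in blood. On the scale of normalized value per kb of exon, averaged over the 10 mice, *Rab5c* of the early endosome had the highest level (495), followed by *Rab7* of the late endosome (362) and *Rab1b*, which acts between the endoplasmic reticulum and the Golgi (259). *Rab4b*, a recycling Rab, came next at 243 per kb, but 85.2% of its exon sequence lies within a same-strand gene model, *Gm21983*, and reads of the pair may not be separable. *Rab10*, of exocytosis, stood at 177 per kb. At the low end on the same scale were *Rab30* of the Golgi (4.97), *Rab23*, known for its part in Hedgehog signaling (5.52), *Rab39* (10.2) and *Rab3a* (12.5). Exons of 21 of the 50 members overlap another annotated gene, and in 6 this covers over 20% of the exon length (*Rab4b*, *Rab2b*, *Rab43*, *Rab24*, *Rab3gap2* and *Rab20*). *Rab43*, like *Rab4b*, overlaps a same-strand gene model (*Gm45140*, 77.3%), which counting by strand would not separate. The rest overlap genes of the other strand, and no source used here says whether reads were counted by strand. The values of these 6 are therefore uncertain. In the plot of levels, the mice of the cohorts overlap for every GTPase.

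**Figure D2:**
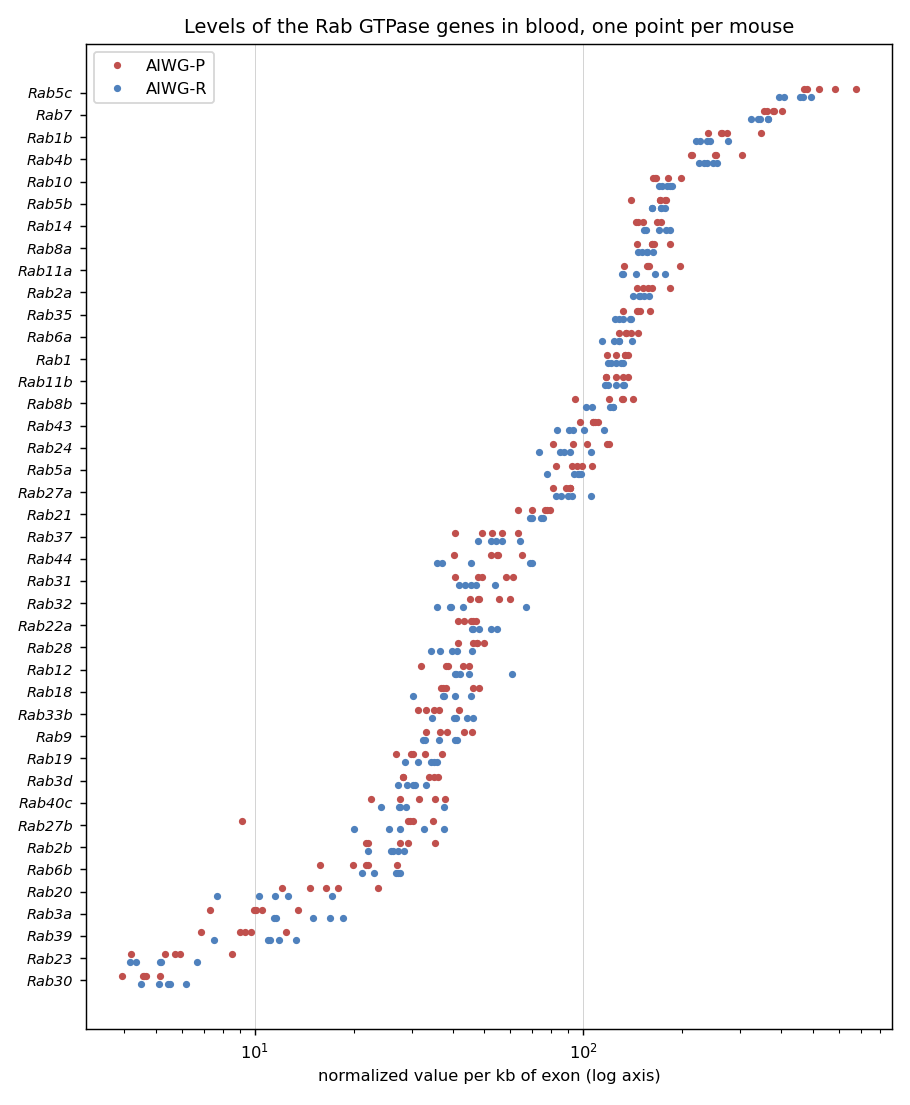
Normalized value per kb of exon (log axis) of the 41 Rab GTPases, 1 point per mouse, AIWG-P above AIWG-R within each gene. Genes are ordered by their mean, with *Rab5c* (495) at the top and *Rab30* (4.97) at the bottom.

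Among the 7 Rabs of the early endosome, *Rab5c* had the smallest *p*. Rab5 proteins drive the fusion of early endosomes. *Rab5c* had normalized values of 1147, 946, 925, 1028 and 1329 in P1, P3, P5, P7 and P8, against 899, 921, 804, 973 and 778 in R1, R2, R4, R8 and R9. All 5 AIWG-P mice were above the AIWG-R median, and R8 was above P3 and P5, so the cohorts overlapped. The log2 fold change was 0.29 (standard error 0.11), a fold of 1.22 that stayed under the fold threshold, with an unadjusted *p* of 0.0191 and an adjusted *p* of 0.343 in limma and an exact permutation *p* of 0.0317 (two-sided). Without 1 mouse the log2 fold change lay between 0.21 and 0.34, and it passed both thresholds when P3, P5 or R8 was left out (0.33, 0.34 and 0.33). Without both P8 and R9 it was 0.17 (unadjusted *p* = 0.0825 in limma).

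The paralogs of *Rab5c* gave smaller differences. *Rab5b* had values of 568, 562, 545, 545 and 443 in AIWG-P mice, against 564, 516, 549, 515 and 549.9 in AIWG-R mice, a log2 fold change of -0.02 (standard error 0.08). *Rab5a* had values of 251, 227, 218, 234 and 195 in AIWG-P mice, against 183, 228, 233, 229.9 and 222 in AIWG-R mice, a log2 fold change of 0.04 (standard error 0.10). In both genes the cohorts covered much the same range. Per kb of exon, *Rab5c* was 4.16 to 8.20 times as high as *Rab5a* and 2.29 to 4.85 times as high as *Rab5b*, so it was the leading Rab5 transcript in all 10 mice. The log2 ratio of *Rab5c* to *Rab5b* was higher in AIWG-P mice by 0.31 (standard error 0.17; exact permutation *p* = 0.0794, adjusted *p* = 0.265 by Benjamini-Hochberg over the 10 pairs compared). For *Rab5c* to *Rab5a* the same difference came to 0.25 (standard error 0.16; exact permutation *p* = 0.159, adjusted *p* = 0.349). A cohort difference particular to *Rab5c* among its paralogs was therefore not shown.

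The other early endosome Rabs gave no call. *Rab20*, which acts on phagosomes, had values of 20.5, 22.9, 25.01, 16.8 and 32.99 in AIWG-P mice, against 16.1, 14.3, 10.7, 23.9 and 17.6 in AIWG-R mice. All 5 AIWG-P mice were above the AIWG-R median, although R8 exceeded P1, P3 and P7. Its log2 fold change of 0.50 was the largest of the 41 GTPases (standard error 0.24, unadjusted *p* = 0.0595 in limma, exact permutation *p* = 0.0635). Without 1 mouse it lay between 0.37 and 0.64, past both thresholds without P7 or R8 (0.61 and 0.64), and 25.6% of its exon sequence overlaps a transcript of the other strand. *Rab31*, *Rab21* and *Rab22a*, which act on early endosomes and on sorting at the trans-Golgi or plasma membrane, had log2 fold changes of 0.14, 0.03 and -0.14.

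Recycling endosome Rabs return receptors to the plasma membrane, and none of the 5 was called. *Rab35*, of the fast recycling route, had the smallest *p* of these. Its values were 415, 411, 372, 421 and 449 in AIWG-P mice, against 391, 352, 363, 394 and 372 in AIWG-R mice. Of the AIWG-P mice, 4 were above all AIWG-R mice and P5 fell among them. The log2 fold change was 0.14 (standard error 0.08), with an unadjusted *p* of 0.0812 in limma and an exact permutation *p* of 0.0397. *Rab11b*, of the slow recycling route and 1 of the 4 members with the highest mean value, had values of 769, 716, 714, 808 and 833 in AIWG-P mice, against 812, 728, 712, 805 and 769 in AIWG-R mice. Its cohorts lay on each other, with a log2 fold change of 0.00 (95% interval -0.16 to 0.17). *Rab11a*, *Rab4b* and *Rab14* had log2 fold changes of 0.10, 0.03 and -0.10. Per kb of exon, *Rab11a* was 1.11 to 1.45 times as high as *Rab11b*, and above it in all 10 mice. This order rests on the exon lengths used, 2336 bases for *Rab11a* and 6109 for *Rab11b*. Before division by length, *Rab11b* was the higher in all 10 mice, with a mean value of 766 against 363.

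The late endosome and lysosome Rabs were also without a call. *Rab7*, which governs the fusion of late endosomes and autophagosomes with lysosomes, was the steadiest member. It had values of 989, 994, 944, 1047 and 924 in AIWG-P mice, against 955, 955, 903, 885 and 847 in AIWG-R mice. All 5 AIWG-P mice were above the AIWG-R median, with P5 and P8 below the highest AIWG-R values. It had a log2 fold change of 0.11 (95% interval -0.04 to 0.26; exact permutation *p* = 0.0476, unadjusted *p* = 0.149 in limma). *Rab24*, which takes part in autophagy, had the smallest *p* of this group in limma. Its values were 109, 120.0, 94.6, 138 and 139.8 in AIWG-P mice, against 102, 106, 98.9, 85.7 and 124 in AIWG-R mice, a log2 fold change of 0.21 (standard error 0.13, unadjusted *p* = 0.128 in limma, exact permutation *p* = 0.167). The exons of *Rab24* overlap *Prelid1*, on the other strand, over 66.4% of their length. With the mean of the red cell markers as a covariate its log2 fold change was 0.40 and passed both thresholds. *Rab32*, *Rab9* and *Rab12*, which act in the making of lysosome-related organelles, in transport to the Golgi and in receptor degradation, had log2 fold changes of 0.22, 0.10 and -0.21. Without 1 mouse the log2 fold change of *Rab32* lay between 0.15 and 0.37, past both thresholds only without R1 (0.37).

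Of 12 Rabs of the endoplasmic reticulum and Golgi, 7 had positive and 5 negative log2 fold changes, and none was called. *Rab33b*, a Golgi Rab that binds the autophagy factor Atg16L1, had the smallest *p*. Its values were 116, 127, 146, 109.9 and 123 in AIWG-P mice, against 161, 143, 121, 154 and 141 in AIWG-R mice. P5 was the exception among AIWG-P mice, lying above the AIWG-R median, and R4 the exception among AIWG-R mice, lying below P3, P5 and P8. The log2 fold change was -0.21 (standard error 0.11, unadjusted *p* = 0.066 in limma, exact permutation *p* = 0.0794), and it passed both thresholds with the total without globins as the scale (-0.35). *Rab1b* and *Rab1* (Rab1a in RefSeq), which carry cargo out of the endoplasmic reticulum, had log2 fold changes of 0.20 and 0.04, and *Rab1b* was higher per kb of exon than *Rab1* in all 10 mice. *Rab6a* and *Rab6b*, of retrograde traffic at the Golgi, had log2 fold changes of 0.11 and -0.25. The log2 ratio of *Rab6a* to *Rab6b* was higher in AIWG-P mice by 0.36 (standard error 0.17; exact permutation *p* = 0.0635, adjusted *p* = 0.265 over the 10 pairs). Leaving out 1 mouse at a time, the log2 fold change of *Rab6b* lay between -0.34 and -0.15, and it was -0.15 without P3 and passed both thresholds only without P8, at -0.34. The rest of the group, *Rab2a*, *Rab2b*, *Rab18*, *Rab19*, *Rab30*, *Rab39* and *Rab43*, lay between -0.22 and 0.14.

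Secretory Rabs gave the one called GTPase. Rab3 proteins sit on secretory vesicles and granules, and *Rab3a* is best known from synaptic vesicles. *Rab3a* had values of 24.2, 13.1, 17.97, 17.8 and 18.9 in AIWG-P mice, against 33.3, 26.8, 20.5, 30.4 and 20.7 in AIWG-R mice. All AIWG-P mice were below the AIWG-R median, and only P1 reached into the AIWG-R range, above R4 and R9. This gave a log2 fold change of -0.49 (standard error 0.21), a fold of 0.71, with an unadjusted *p* of 0.0368 and an adjusted *p* of 0.373 in limma and an exact permutation *p* of 0.0476. The call ended when P3, P5, P7, R1, R2 or R8 was left out (log2 fold changes of -0.39, -0.49, -0.49, -0.41, -0.48 and -0.44) and under quantile normalization (-0.45). At 22.4 its mean value was low among the members.

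*Rab3d*, of exocrine and hematopoietic granules, had a small difference in the other direction that did not pass the test. It had values of 134, 143, 139, 112 and 112 in AIWG-P mice, against 120.2, 131, 108, 115 and 122 in AIWG-R mice, a log2 fold change of 0.10 (standard error 0.10). Per kb of exon *Rab3a* stood below *Rab3d* in all 10 mice, at 0.20 to 0.40 of its level in AIWG-P mice and at 0.38 to 0.61 in AIWG-R mice. The log2 ratio of *Rab3a* to *Rab3d* was lower in AIWG-P, with a difference of -0.61 (standard error 0.22; exact permutation *p* = 0.0159). This was the smallest *p* of the 10 pairs and did not hold after adjustment over them (adjusted *p* = 0.159).

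The other secretory Rabs lay close to no difference or varied widely. *Rab8a*, which brings vesicles to the plasma membrane and the cilium and is 1 of the 4 members with the highest mean value, had values of 739, 744, 663, 737 and 833 in AIWG-P mice, against 740.3, 712, 665, 713 and 685 in AIWG-R mice. Its cohorts overlapped, with a log2 fold change of 0.08 (95% interval -0.09 to 0.24). *Rab8b*, *Rab10*, *Rab37*, *Rab44* and *Rab27a*, of which the last docks lytic granules in cytotoxic cells, had log2 fold changes of 0.10, -0.03, -0.08, 0.10 and -0.04. *Rab27b*, of platelet dense granules, had values of 228, 68.7, 223, 262 and 220.0 in AIWG-P mice, against 247, 151, 193, 284 and 209 in AIWG-R mice. P3 lay far below all other mice, and the platelet markers did the same there, with a summed value of 6394, against 11654 to 22419 in the other 9 mice. The log2 fold change of *Rab27b* was -0.21 (standard error 0.31, unadjusted *p* = 0.501 in limma) and 0.14 without P3. Over the 10 mice *Rab27b* and the mean log2 value of 13 platelet markers had Pearson's r = 0.89 (permutation *p* = 0.00568, adjusted *p* = 0.301 over 450 relations) and Spearman's rho = 0.78 (permutation *p* = 0.0101, adjusted *p* = 0.414), and r was 0.84 without P3 and P8. This relation did not pass the correction. It was not particular to *Rab27b*: of the 50 members, 7 had an unadjusted permutation *p* under 0.05 for r with the platelet markers. Among them were *Rab11a* (r = 0.77, rho = 0.88) and *Rab2a* (r = 0.72, rho = 0.90). None of the 7 passed the correction.

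Of the 3 remaining Rab GTPases, *Rab28*, known from the cilium and photoreceptors, had an unadjusted *p* under 0.05. It had values of 82.2, 72.01, 82.1, 86.1 and 80.1 in AIWG-P mice, against 79.4, 68.8, 63.3, 59.7 and 71.5 in AIWG-R mice. All AIWG-P mice were above 4 of the 5 AIWG-R mice, and R1 lay above P3. Its log2 fold change was 0.23 (standard error 0.11), a fold of 1.18 that stayed under the fold threshold, with an unadjusted *p* of 0.048 in limma and an exact permutation *p* of 0.0159. It was 0.09 (unadjusted *p* = 0.501) when the total without globins set the scale. *Rab23* and *Rab40c*, of which *Rab40c* serves a ubiquitin ligase, had log2 fold changes of 0.19 and 0.08.

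**Figure D3:**
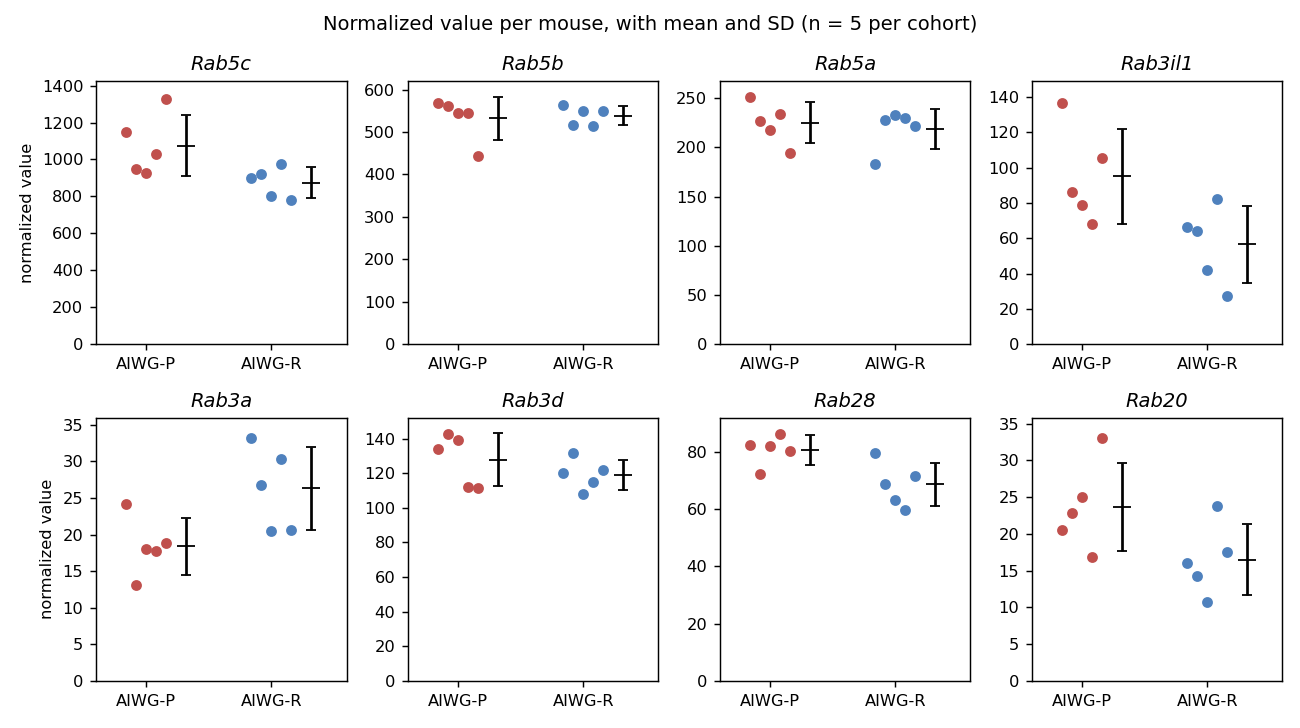
Normalized values of 8 members in the 5 AIWG-P (left) and 5 AIWG-R mice (right) of each panel, with the mean and SD beside the points and every axis starting at 0. *Rab5c*, *Rab3il1* and *Rab28* lie higher in AIWG-P, *Rab3a* lies lower, and *Rab5b*, *Rab5a* and *Rab3d* cover much the same range in both cohorts.

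*Rab3il1* was the one member called higher, and it tracked the red cell markers closely. It encodes an exchange factor that acts on Rab3a and Rab8 proteins, and its relative *Rab3ip* encodes Rabin8. *Rab3il1* had values of 137, 86.2, 78.9, 68.3 and 105 in AIWG-P mice, against 66.5, 64.4, 41.9, 82.4 and 27.6 in AIWG-R mice. All AIWG-P mice were above 4 of the 5 AIWG-R mice, and R8 was above P5 and P7. The log2 fold change was 0.79 (standard error 0.27), a fold of 1.73, with an unadjusted *p* of 0.0113 and an adjusted *p* of 0.336 in limma and an exact permutation *p* of 0.0317. It passed both thresholds when any one mouse was left out, with log2 fold changes between 0.57 and 0.95, and without both P8 and R9 (0.52). For *Rab3ip* the log2 fold change was 0.01 (standard error 0.12).

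The red cell markers moved with *Rab3il1*. The summed value of the 18 red cell markers measured was 281601 to 465608 in AIWG-P mice (median 355340) and 189429 to 400507 in AIWG-R mice (median 291907). Over the 10 mice *Rab3il1* and the mean log2 value of these markers had Pearson's r = 0.98 (permutation *p* = 1e-05, the smallest that 100000 permutations can give; adjusted *p* = 0.0045 over 450 relations of 50 members with 9 marker lists) and Spearman's rho = 0.96 (permutation *p* = 4e-05, adjusted *p* = 0.018). Without P1 and R9, the mice farthest from the median of the marker mean, r was 0.97, and for deviations from the cohort means it was 0.96. Of the 450 relations, 42 had an unadjusted *p* under 0.05 for r, and this was the only one with an adjusted *p* under 0.05. With the marker mean as a covariate the log2 fold change of *Rab3il1* was 0.01 (unadjusted *p* = 0.955 in limma), which ended its call, while *Rab3a* kept its call at -0.81. *Rab5c* had r = 0.80 with the same markers (permutation *p* = 0.0066, adjusted *p* = 0.301), and rho = 0.85 (permutation *p* = 0.00306, adjusted *p* = 0.197). Its r was 0.75 without P1 and R9 and 0.65 for deviations from the cohort means, and its log2 fold change with the covariate was 0.10. *Rab14* ran the other way, with r = -0.82 (permutation *p* = 0.00121, adjusted *p* = 0.272) and rho = -0.85 (permutation *p* = 0.00291, adjusted *p* = 0.197), and r was -0.73 without P1 and R9. The part of the red cell content of the samples in these differences was not tested beyond these values.

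**Figure D4:**
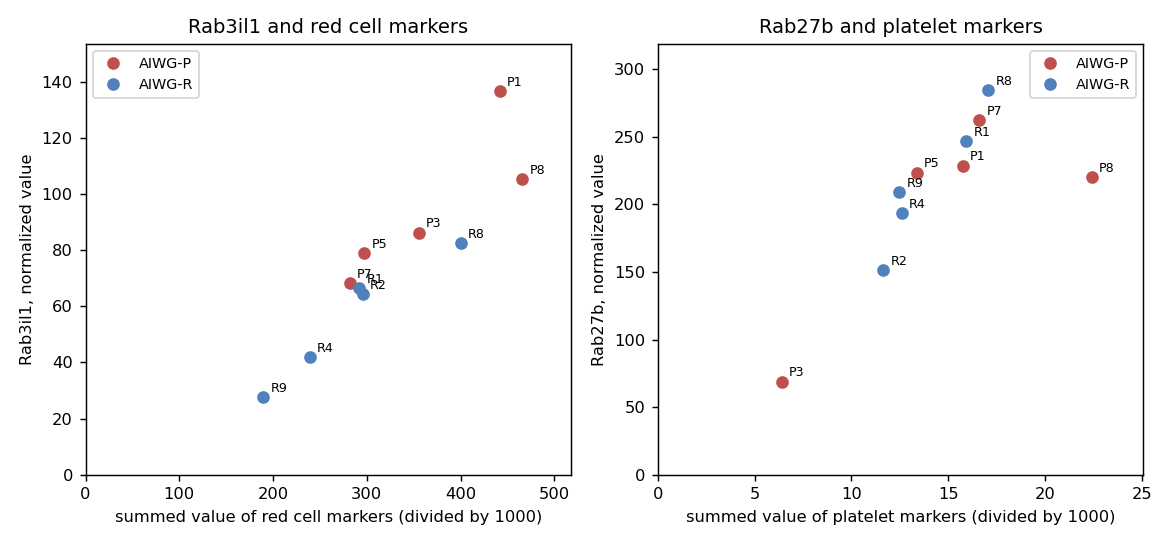
Left, normalized value of *Rab3il1* against the summed value of the red cell markers, divided by 1000; right, *Rab27b* against that of the platelet markers. Each point is 1 mouse, named beside it, and P3 has the lowest *Rab27b* (68.7) and the lowest platelet marker sum (6394).

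The other 8 regulators and effectors taken by the symbol gave no call. The Rab11 family interacting proteins link Rab11 to motors and membranes, and *Rab11fip1* to *Rab11fip5* had log2 fold changes of 0.25, -0.46, -0.22, -0.10 and 0.08. *Rab11fip2* rested on P8, where its value was 20.4, against 65.3 to 80.5 in the other AIWG-P mice and 59.0 to 119 in AIWG-R mice, and its log2 fold change was -0.10 without P8. Without 1 mouse that of *Rab11fip1* lay between 0.19 and 0.36, past both thresholds without P8 or R1 (0.36 and 0.33). *Rab3gap1* and *Rab3gap2*, the subunits of a complex that acts on Rab3 and on Rab18, had log2 fold changes of -0.17 and -0.22.

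Other genes of the Rab cycle were counted from lists of the factors that modify, load, unload and read Rab proteins. Of 136 measured outside the symbol rule, none was called higher and 5 were called lower, against 4.06 and 3.23% of all genes, and 16 had an unadjusted *p* under 0.05, against 12.8% of all genes. Their median log2 fold change was -0.08, with 47 positive and 89 negative, against a median of -0.01 and a positive share of 48.4% over all genes. This median and this split were not recomputed with P8 left out. The GEFs had no call in 45 genes, with 13 positive and 32 negative. The GAPs had 1 call in 33 genes, with 15 positive and 18 negative, and the effectors had 4 in 48, with 14 positive and 34 negative. The 10 prenylation and recycling factors, among them the GDP dissociation inhibitors, had no call, with 5 positive and 5 negative.

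The called effectors were *Appl2*, *Golga1*, *Fyco1* and *Ocrl*, and the called gene of the GAP list was *Tbck*. *Appl2*, which encodes a Rab5 effector of early signaling endosomes, had values of 132, 131, 143, 125 and 105 in AIWG-P mice, against 152, 189.5, 152, 156 and 168 in AIWG-R mice. All AIWG-P mice were below all AIWG-R mice. The cohorts were free of overlap in 5 of the 136 genes, *Appl2* included, against 2.55% of all genes. Its log2 fold change was -0.36 (standard error 0.10, adjusted *p* = 0.325 in limma, exact permutation *p* = 0.00794, the smallest this design allows). *Golga1*, which encodes a golgin of the trans-Golgi, averaged 103 ± 21.8 in AIWG-P mice and 147 ± 17.7 in AIWG-R mice (SD, n = 5 each), a log2 fold change of -0.53. *Fyco1*, which encodes a Rab7 effector that links vesicles to kinesin, averaged 324 ± 44.1 in AIWG-P mice and 416 ± 47.8 in AIWG-R mice, a log2 fold change of -0.36. *Ocrl*, which encodes an inositol phosphatase bound by many Rabs, averaged 36.4 ± 9.37 in AIWG-P mice and 52.9 ± 9.26 in AIWG-R mice, a log2 fold change of -0.55. *Tbck*, which encodes a protein with a domain typical of Rab GAPs, averaged 40.5 ± 12.5 in AIWG-P mice and 57.4 ± 9.07 in AIWG-R mice, a log2 fold change of -0.53. Leaving out 1 mouse at a time, *Golga1* and *Ocrl* kept their calls, whereas *Appl2* lost it without P8 or R2 (-0.30 and -0.31), *Fyco1* without P8 or R8 (-0.28 and -0.32) and *Tbck* without R4 (-0.44). With the red cell marker mean as a covariate *Appl2*, *Golga1* and *Fyco1* kept their calls, and *Ocrl* and *Tbck* had log2 fold changes of -0.34 and -0.36 and lost theirs.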

How the data were processed

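Whole-blood RNA of 10 mice was sequenced by the authors from TruSeq libraries. They aligned reads with Bowtie2 against the mouse transcriptome, quantified genes with RSEM and used limma. The processing notes of the submitters also name mm9. Tool versions, the kind of normalization and any filter on genes are not stated in the sources used here. The deposited signal values, 1 per gene and mouse, were used as normalized by the authors and were treated as normalized values, not as read numbers. Deposited columns with the authors' cohort means, fold changes and significance values were left aside.

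Values were compared as log2(value + 1), so fold changes of low genes are understated, after leaving out 2 genes that did not exceed 1 in 5 or more mice (10429 remained), with limma 3.58.1 and a mean-variance trend in R 4.3.3 and no covariate. The script was tested on simulated data. Benjamini-Hochberg adjustment ran over all genes. Exact two-sided permutation tests used all 252 splits, with a smallest *p* of 0.00794. Correlations used 100000 permutations. Each mouse is 1 replicate. The labels give each mouse a second number, 3 or 4, of unstated meaning, which was tried as a covariate. Values per kb used exon lengths of GENCODE M21 (GRCm38), counting every base in an exon of any basic-set transcript of the gene. The files' build was not used for coordinates. The members, role lists, marker lists and Rab cycle lists were chosen with earlier results of these data known. Values in full are given for members past both thresholds, with an unadjusted *p* under 0.05, with cohorts free of overlap, with the smallest *p* of a role group, or among the 4 highest means, and paralogs are set beside them; *Rab20*, *Rab27b* and the members named with single values were added after their values were seen. Other Rab cycle genes are named where they passed both thresholds. Python 3.11.15, scipy 1.17.1 and matplotlib 3.10.9 were used. Alternatives were other scalings and filters, covariates, a pseudocount of 0.1, a replicate block and leaving out each mouse; leaving out P8 and R9 together and the platelet marker mean as a covariate were chosen after seeing the data.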

Additional observations from a re-analysis of the deposited data

Results flagged for a closer look

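Of 100 groups of 5 mice (50 members in each cohort), 7 held a mouse whose distance to its nearest neighbour was over 0.71 of the range of its group, and chance gives this in about 1 of 20 groups. P8 was the lowest AIWG-P mouse for *Rab11fip2* (20.4, with the next at 65.3), *Rab27a* (256, with the next at 281) and *Rab5b* (443, with the next at 545). P3 was the lowest AIWG-P mouse for *Rab27b* (68.7, with the next at 220.0). In AIWG-R, R8 was the highest for *Rab12* (126, with the next at 92.6), R1 the highest for *Rab32* (144, with the next at 92.2), and R1 the lowest for *Rab5a* (183, with the next at 222). No difference between further groups was available to test, since the series has 1 contrast.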

How the results depend on the processing

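The 50 members gave 1 call higher (*Rab3il1*) and 1 lower (*Rab3a*). Higher calls numbered 2 without a mean-variance trend, under quantile normalization and with P8 and R9 left out, and 3 with the *p* threshold alone; without 1 mouse they ranged between 1 and 3. With the red cell marker mean as a covariate there was again 1, now *Rab24*. Lower calls numbered 0 under quantile normalization and with the stricter filter, which left 8415 genes and removed *Rab3a*, 2 with the red cell marker mean as a covariate, and 6 with the total without globins as the scale; without 1 mouse they ranged between 0 and 2. The other Rab cycle genes gave 0 higher and 5 lower. Higher calls there numbered 1 with the platelet or the red cell marker mean as a covariate and 2 with the *p* threshold alone, and 0 to 2 without 1 mouse. Lower calls numbered 8 with the red cell covariate, 24 with the total without globins and 14 with the *p* threshold alone, and 3 to 13 without 1 mouse. With the replicate block, the members gave 2 higher calls and the other Rab cycle genes 1 higher and 9 lower; only numbers 1 and 8 occur in both cohorts (r of their deviations across genes 0.12 and 0.33), so the numbers were not taken to pair mice. The cause of these changes was not tested, except that leaving out mice or genes leaves fewer of them. Over all genes, 423 higher and 337 lower calls became 178 and 188 without P8 and R9, 123 and 241 with the red cell covariate, 477 and 537 with the platelet covariate, and 537 and 531 with the replicate block; without 1 mouse, lower calls ranged up to 637 and higher calls down to 265. Over the single genes, 1165 values under an alternative kept their side of the thresholds, 20 gained a call, 17 lost one, and none with a call turned direction. Tests for read counts were planned and not run, because the values could not be taken back to reads. Low members such as *Rab3a* and *Rab20* have low values, and 5 mice per cohort limit the size of difference that can be seen.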
